A study of Mus musculus with 14 samples.

Results

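Basement membrane and collagen genes were followed in dissected retinal veins as a list of 33 symbols out of 40123 in the deposited table. The symbols were given by name and not picked by measured level, but with earlier results of these data known. The list held the 6 chains of collagen IV, 5 laminin alpha, 3 beta and 2 gamma chains, the linkers Nid1, Nid2, Hspg2 and Agrn, the collagens Col15a1 and Col18a1, the glycoproteins Sparc, Fn1 and Tnc, 5 chains of fibrillar collagens and 3 chains of collagen VI. All 33 were found and all passed the filter on low values (a value of 1 or more in at least 5 libraries). The 14 libraries came from mice aged 9 months, 9 of DBA/2J, an inbred strain that develops raised intraocular pressure and glaucoma with age, and 5 of DBA/2J-Gpnmb+/SjJ, a related strain with a working Gpnmb allele that the labels call normotensive control. All mice had received sodium fluorescein (0.33 mg for each g of weight) 5 minutes before death, which made vessels visible for dissection. Each library was made from 4 veins of 1 mouse with their main branches, from about 100 pg of RNA, and the spread behind each p-value is that between mice. The labels give no sex.

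Vessels are wrapped in a basement membrane that endothelial cells and pericytes build together, with astrocyte and Muller glial endfeet on its outer side. Laminin trimers, made of an alpha, a beta and a gamma chain, polymerise at the cell surface, collagen IV trimers form a second crosslinked network, and nidogens and perlecan tie both networks together. Fibrillar collagens and collagen VI lie outside this sheet, in the vessel wall, and cells read the whole through integrins and dystroglycan. Thickening of this layer is a known feature of ageing and diabetic retinal vessels.

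Scaled totals ran from 14836190 to 22193399 per library, and estimated depth, read from the spacing of the lowest values, lay between 8931959 and 33786377 reads. Gpnmb lay between 1409 and 3190 scaled counts in controls and between 65.4 and 516 in DBA/2J, so every library matched its label. Library numbers ran from 16 to 30 in controls and from 31 to 39 in DBA/2J, so strain and whatever goes with the library number cannot be told apart. Of the 12 endothelial markers, 5 were higher in DBA/2J, and they took 0.0900% to 0.132% of scaled counts in controls and 0.102% to 0.348% in DBA/2J, with none at 0 in a whole group. Lens markers took 7.37% to 16% in controls and 0.00169% to 1.05% in DBA/2J, with 12 of 12 lower and none at 0 in a whole group. Muller glia markers took 0.174% to 0.271% and 0.281% to 0.646% (5 of 8 higher, with Dkk3 alone at 0.522% in the highest library). Fibroblast markers took 0.00933% to 0.0148% and 0.00440% to 0.0185%. Of these 8 markers Slc22a6 did not pass the filter on low values, and of the others 0 were higher by limma and 1 lower.

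Of the 33 matrix genes, 4 passed the test, in opposite directions. Col6a3 and Col4a4 were lower in DBA/2J veins, and Fn1 and Tnc were higher. Over all 29166 genes tested, 12.1% were higher and 7.2% lower at an adjusted p under 0.05 (limma), 19.3% in either direction, and neither the 2 of 33 members higher nor the 2 of 33 lower lay above those shares. At an unadjusted p under 0.05, 13 members were higher and 2 lower, against 19.6% and 13.6% of all genes. Among coding genes, which all members are, 27.8% were higher and 13.3% lower at that threshold. The split of all genes depends on the scaling, with 3518 higher and 2101 lower as deposited, 5422 and 1307 with each library scaled to the same total, and 2740 and 2868 after quantile normalization. The median log2 fold change was 0.37 over the members, against 0.05 over all genes tested and 0.16 over coding genes. Without Col15a1, which had too few reads for a fold change, the members' median was 0.35. In bulk tissue, fewer cells of a type and less RNA per cell cannot be told apart.

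Levels were compared between genes as scaled counts per kilobase of the longest annotated transcript, averaged over all libraries. Sparc, a collagen-binding glycoprotein that endothelium makes in quantity, stood far above the rest at 6322 per kilobase. Col18a1 followed at 950, Fn1 at 726, Col6a1 at 490 and Agrn at 444, but without DBA/2J sample 5 Col18a1 stood at 554, below Fn1. In controls alone the order was Agrn at 447, Fn1 at 390, Col6a1 at 377 and Col18a1 at 370. Of the collagen IV chains, Col4a5 stood at 82.5, Col4a1 at 57.6 and Col4a2 at 55.5, and their ranges over libraries overlapped. Col4a4 stood at 35.5 over all libraries, but in controls alone at 55.1, beside 54.6 for Col4a1 and 45.9 for Col4a2. Col1a2 stood at 124 and its partner chain Col1a1 at 4.30, although type I collagen holds more of the chain that Col1a1 encodes. Col15a1 was lowest at 0.576 per kilobase, with between 0.111 and 9.13 estimated reads in a library.

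**Figure D1:**
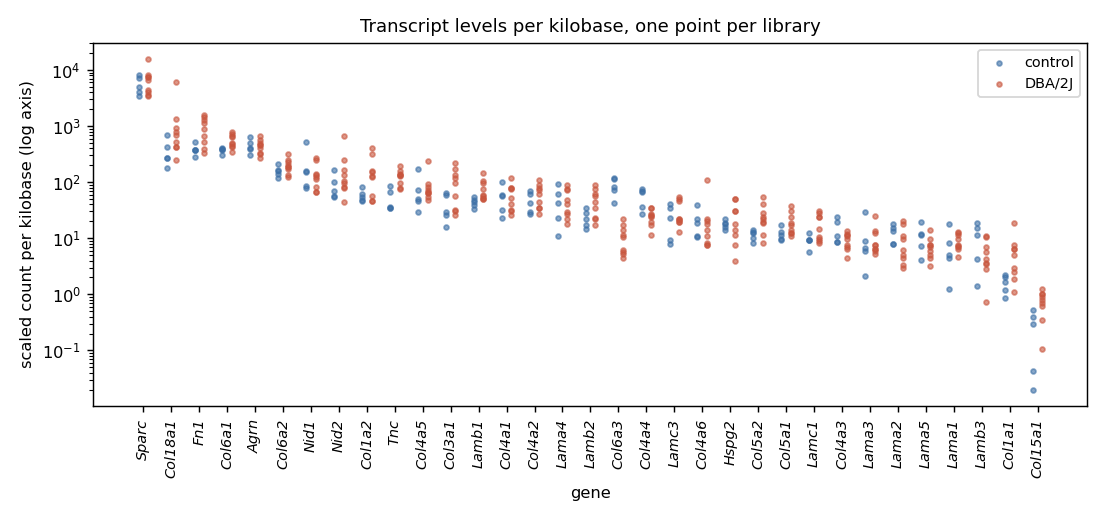
Transcript level of each of the 33 genes in scaled counts per kilobase on a log axis, one point per library, with control and DBA/2J side by side and genes ordered by their mean over all libraries. Sparc leads at 6322 per kilobase on average and Col15a1 is lowest at 0.576, and Col6a3 is the gene whose control and DBA/2J points separate.

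Collagen VI is a microfibrillar collagen of the vessel wall whose trimer joins the chains of Col6a1, Col6a2 and the much longer Col6a3. Of these, Col6a3 fell in DBA/2J and the other chains did not pass. Col6a3 (ENSMUSG00000048126.16, chromosome 1, 90765923 to 90843971, reverse strand, GRCm38) stood at 1141, 423, 845, 733 and 1206 scaled counts in control samples 1 to 5, and in DBA/2J at 44.3 to 219 with a median of 108. The highest DBA/2J library lay below the lowest control, so the groups did not overlap; 2.31% of all genes tested were separated in that direction. The mean fell from 870 ± 319 (SD, n = 5) to 108 ± 60.9 (SD, n = 9), a log2 fold change of -3.10 (SE 0.37, adjusted p = 0.000113, limma). It passed in all 14 fits that left out a library (-3.34 to -2.96).

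Col6a1 stood at 1266, 1534, 1632, 1676 and 1611 in controls and 1405 to 3155 in DBA/2J (median 2060). Of the 9 DBA/2J libraries 8 lay above the highest control, but the log2 fold change of 0.51 did not pass (SE 0.18, adjusted p = 0.0533, limma). It passed without DBA/2J sample 3 (0.56, adjusted p = 0.043) or sample 5 (0.59, adjusted p = 0.0217). Col6a2 had a log2 fold change of 0.30 (SE 0.20, adjusted p = 0.321). As a share of Col6a1 counts in the same library, which no scaling can change, Col6a3 stood at 27.6% to 90.1% in controls and 1.97% to 9.01% in DBA/2J. Lens markers, lower in DBA/2J as given above, varied widely among its libraries. The DBA/2J libraries with the most lens RNA, samples 6 (1.05%) and 1 (0.914%), held the highest Col6a3 values of that group, 176 and 219. In samples 3, 5, 8, 2, 9, 4 and 7, from 0.699% down to 0.00169% lens, Col6a3 stood at 57.9, 108, 62.1, 52.7, 140, 44.3 and 116. When the lens mean entered the fit as a covariate, the Col6a3 difference was -2.38 and did not pass (adjusted p = 0.26, limma). That covariate separates the groups completely (14.8 to 15.9 in controls and 3.94 to 12.3 in DBA/2J), and 1 gene higher and 8 lower remained of all genes tested.

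**Figure D2:**
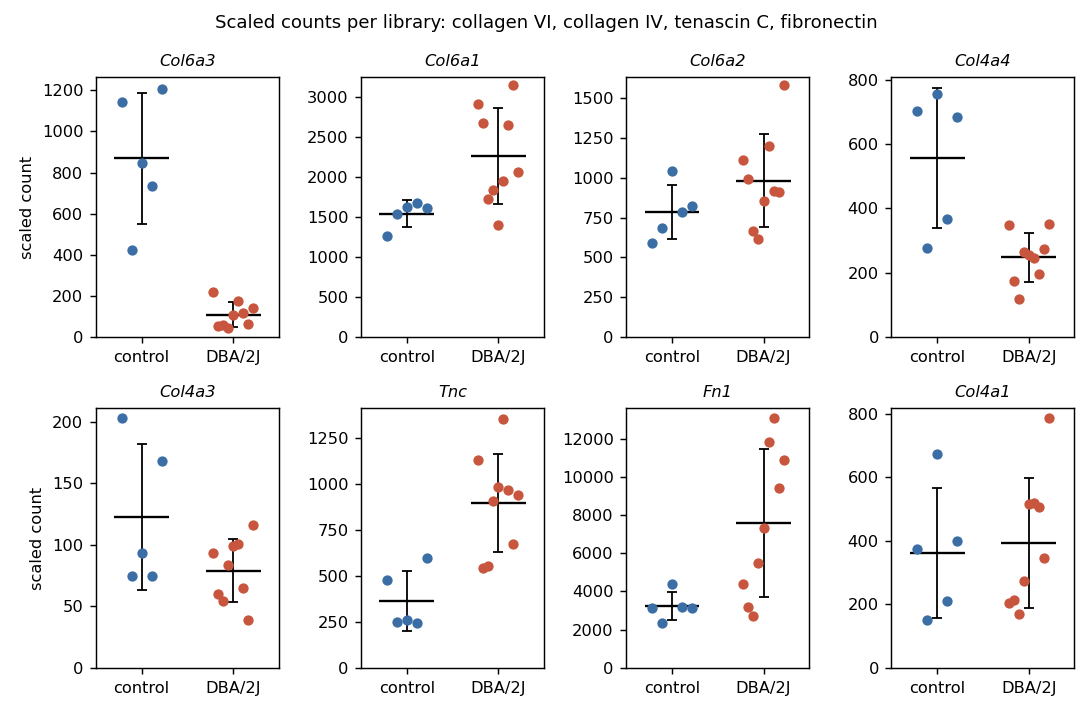
Scaled counts per library for Col6a3, Col6a1, Col6a2, Col4a4, Col4a3, Tnc, Fn1 and Col4a1, one point per library in order of sample number, with the mean and SD of each group (n = 5 and n = 9). All DBA/2J points of Col6a3 lie below the lowest control at 423, whereas the groups overlap in the other 7 panels.

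The start regions of Col6a3, which fell, and of its partner chain Col6a1, which did not pass, are printed for reference, from 250 bases before to 50 after the start given by RefSeq in GRCm38.p6, which held such a window for 23 of the 33 genes. Capitals mark the bases from the start on. Col6a3 lies at chr1:90843922-90844221 and Col6a1 at chr10:76725995-76726294, both on the reverse strand.
Col6a3: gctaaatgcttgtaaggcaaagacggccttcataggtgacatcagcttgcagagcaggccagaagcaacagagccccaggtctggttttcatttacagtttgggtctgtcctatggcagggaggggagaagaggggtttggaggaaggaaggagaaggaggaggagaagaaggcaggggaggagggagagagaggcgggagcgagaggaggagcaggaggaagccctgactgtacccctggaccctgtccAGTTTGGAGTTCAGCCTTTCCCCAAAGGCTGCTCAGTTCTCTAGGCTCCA
Col6a1: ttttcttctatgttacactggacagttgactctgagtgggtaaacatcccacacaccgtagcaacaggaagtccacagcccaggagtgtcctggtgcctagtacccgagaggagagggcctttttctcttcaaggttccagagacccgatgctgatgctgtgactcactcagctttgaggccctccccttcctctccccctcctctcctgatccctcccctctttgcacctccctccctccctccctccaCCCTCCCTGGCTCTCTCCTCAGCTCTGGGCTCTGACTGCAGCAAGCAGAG
In these windows 4 motifs were searched on both strands. The TATA box was searched as TATAAA and occurs in 13.6% of all 32851 windows. The CCAAT box occurs in 37.4%, the GC box, searched as GGGCGG, in 35.7%, and the AP-1 element, searched as TGANTCA, in 7.81%. The Col6a1 window held 1 match, an AP-1 element at position -90 from the start, and the Col6a3 window held none of the 4 sets of letters. Of the 23 member windows, 15 held a GC box, 7 a CCAAT box, 2 a TATA box and 1 an AP-1 element. A match of letters does not show that a factor binds.

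Collagen IV chains come in pairs of genes that start head to head. Col4a4 fell, and none of the other 5 chains passed, among them Col4a1 and Col4a2, which make the common vascular network. Col4a4 (chromosome 1, 82448423 to 82586849) stood at 702, 278, 756, 368 and 683 in controls and 117 to 351 in DBA/2J (median 255). In 7 of 9 DBA/2J libraries it lay below the lowest control, and the groups overlapped through DBA/2J samples 1 and 9. Its log2 fold change was -1.13 (SE 0.28, adjusted p = 0.00973, limma), and it passed in all 14 fits that left out a library. With the controls of library numbers 28 and 30 alone it did not pass (-1.08, adjusted p = 0.0733), nor with the lens covariate (-1.18, adjusted p = 0.366). The chains of Col4a3, Col4a4 and Col4a5 form a separate network known from the kidney glomerulus and from parts of the eye, the lens capsule among them. The part of lens RNA in the Col4a4 result cannot be told apart from strain, since every control had more lens RNA than every DBA/2J library.

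Col4a3 stood at 203, 74.2, 93.0, 74.6 and 168 in controls and 38.5 to 116 in DBA/2J (median 83.6). The groups overlapped, and its log2 fold change of -0.57 did not pass (SE 0.31, adjusted p = 0.205). Its annotated start lies 72 bases from that of Col4a4, on the other strand, inside the RefSeq window of Col4a4 at chr1:82586800-82587099 (reverse strand), where capitals mark the 71 bases between the starts.
Col4a4: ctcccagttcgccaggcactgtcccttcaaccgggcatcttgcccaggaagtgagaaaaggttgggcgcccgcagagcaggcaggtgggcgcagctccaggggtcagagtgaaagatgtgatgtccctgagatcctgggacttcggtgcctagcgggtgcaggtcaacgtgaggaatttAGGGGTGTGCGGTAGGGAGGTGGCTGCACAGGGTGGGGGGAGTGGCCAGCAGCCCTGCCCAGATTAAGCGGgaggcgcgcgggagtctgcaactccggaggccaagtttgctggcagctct
Col4a1 stood at 373, 150, 674, 211 and 398 in controls and 169 to 786 in DBA/2J, and Col4a2 at 391, 178, 455, 186 and 270 and 171 to 703. Their log2 fold changes were 0.14 (SE 0.38, adjusted p = 0.842) and 0.37 (SE 0.33, adjusted p = 0.471). Of the DBA/2J values of Col4a2, 4 lay above the highest control and 1 below the lowest. The start windows of these genes share 78 bases. They are in capitals in the Col4a2 window at chr8:11312555-11312854 (forward strand).
Col4a2: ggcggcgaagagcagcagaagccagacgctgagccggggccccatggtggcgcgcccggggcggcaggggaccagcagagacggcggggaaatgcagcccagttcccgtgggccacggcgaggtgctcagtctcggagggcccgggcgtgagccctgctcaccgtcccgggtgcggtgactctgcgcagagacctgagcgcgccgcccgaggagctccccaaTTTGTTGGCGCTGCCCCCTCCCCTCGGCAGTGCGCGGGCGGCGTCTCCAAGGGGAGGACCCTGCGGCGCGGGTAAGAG
The third pair, Col4a5 and Col4a6 on chromosome X, differed by 0.34 on the log2 scale (adjusted p = 0.567) and -0.17 (adjusted p = 0.859). Col4a5 reached 1582 and Col4a6 741 in DBA/2J sample 5, where the next highest DBA/2J values were 612 and 145.

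Laminin chains gave no member past the threshold by limma. At an unadjusted p under 0.05, 3 of the 10 were higher, against 27.8% of coding genes. Lamb1, the beta chain of the common vascular laminins, stood at 226, 320, 279, 190 and 258 in controls and 287 to 849 in DBA/2J (median 341). Of the 9 DBA/2J libraries 6 lay above the highest control (log2 fold change 0.72, SE 0.25, adjusted p = 0.0526, limma). Without DBA/2J sample 2, 3 or 8 it passed (adjusted p = 0.0389, 0.043 and 0.0388). Lamb2, the beta chain of mature vessels and synapses, differed by 0.88 (SE 0.36, adjusted p = 0.0994), which passed without DBA/2J sample 3 (1.03, adjusted p = 0.0418). Lamc1, the gamma chain of most laminins, differed by 0.77 (SE 0.34, adjusted p = 0.12), with DBA/2J samples 5 to 9 at 111 to 230 and controls up to 95.1. Lamc3, a second gamma chain, by 0.49 (adjusted p = 0.448).

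Alpha chains, which decide what receptor a laminin meets, did not share a direction. Lama4, the endothelial alpha chain, was the highest of them per kilobase. It stood at 139, 369, 566, 259 and 65.2 in controls and 111 to 545 in DBA/2J (log2 fold change 0.18, SE 0.46, adjusted p = 0.825). Controls alone thus spanned the whole DBA/2J range. Lama5, the other alpha chain of endothelium, differed by -0.53 on the log2 scale (adjusted p = 0.326), and Lama2, an alpha chain of muscle and of pericyte and glial basement membranes, by -0.70 (adjusted p = 0.273). With the mean of the endothelial list as a covariate, Lama2 passed at -1.49 (adjusted p = 0.00247) and Lama5 at -1.003 (adjusted p = 0.0407). Lama1 of the inner limiting membrane differed by 0.65 (adjusted p = 0.319). The epithelial chains Lama3 and Lamb3 had 0.26 (adjusted p = 0.75) and -0.73 (adjusted p = 0.444), with Lamb3 at 3.54 to 91.7 scaled counts over all libraries and as few as 1.92 estimated reads in one.

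Linkers between the networks showed no difference that passed by limma, and none passed at an unadjusted p under 0.05 (0 of 4). Agrn, the heparan sulfate proteoglycan agrin, which neurons also make, had the smallest difference between groups of the 33 genes. It stood at 2621, 3379, 5521, 4295 and 3439 in controls and 2287 to 5709 in DBA/2J (median 3971), with a log2 fold change of -0.02 (SE 0.21, adjusted p = 0.954). Hspg2, perlecan, stood at 203 to 307 in controls and spread far more in DBA/2J, from 55.7 to 704 (0.04, SE 0.48, adjusted p = 0.967). In DBA/2J 4 libraries lay above every control and 4 below. Nid1 reached 3226 in control sample 5, against 484 to 952 in the other controls (log2 fold change -0.33, adjusted p = 0.628). Nid2 reached 3292 in DBA/2J sample 5, against 216 to 1231 in the other DBA/2J libraries (0.67, adjusted p = 0.344).

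Col18a1, the multiplexin collagen that releases endostatin, stood at 3950, 2374, 1511, 1520 and 998 in controls and 1406 to 34110 in DBA/2J (median 3925). The highest value belonged to DBA/2J sample 5 and the next was 7358. Its log2 fold change of 1.22 did not pass (SE 0.54, adjusted p = 0.123, limma). DBA/2J sample 5 thus held the top value of Col18a1, Nid2, Col4a5 and Col4a6. It also held the top value of Lamb1 (849), Lamb2 (504), Lamc1 (230), Lamc3 (322) and Col5a1 (312), and the remaining members peaked in other libraries. Outside the list, Fbn1 (14890), Fbln1 (27730), Ltbp1 (5063) and Efemp1 (6188) were highest there too. In DBA/2J sample 5 the mean log2 value of the Muller glia list was 11.9, within the 11.2 to 12.2 of the other DBA/2J libraries. The share of that list in scaled counts was 0.646% in sample 5, above the 0.281% to 0.407% of the other DBA/2J libraries. The part of Muller glia in the sample 5 values was not tested. Col15a1, the related collagen of microvessels, had 6.71 estimated reads over the 5 controls and 43.3 over the 9 DBA/2J libraries, and is given no fold. At these few reads it passed without DBA/2J sample 4 (adjusted p = 0.0485, limma).

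**Figure D3:**
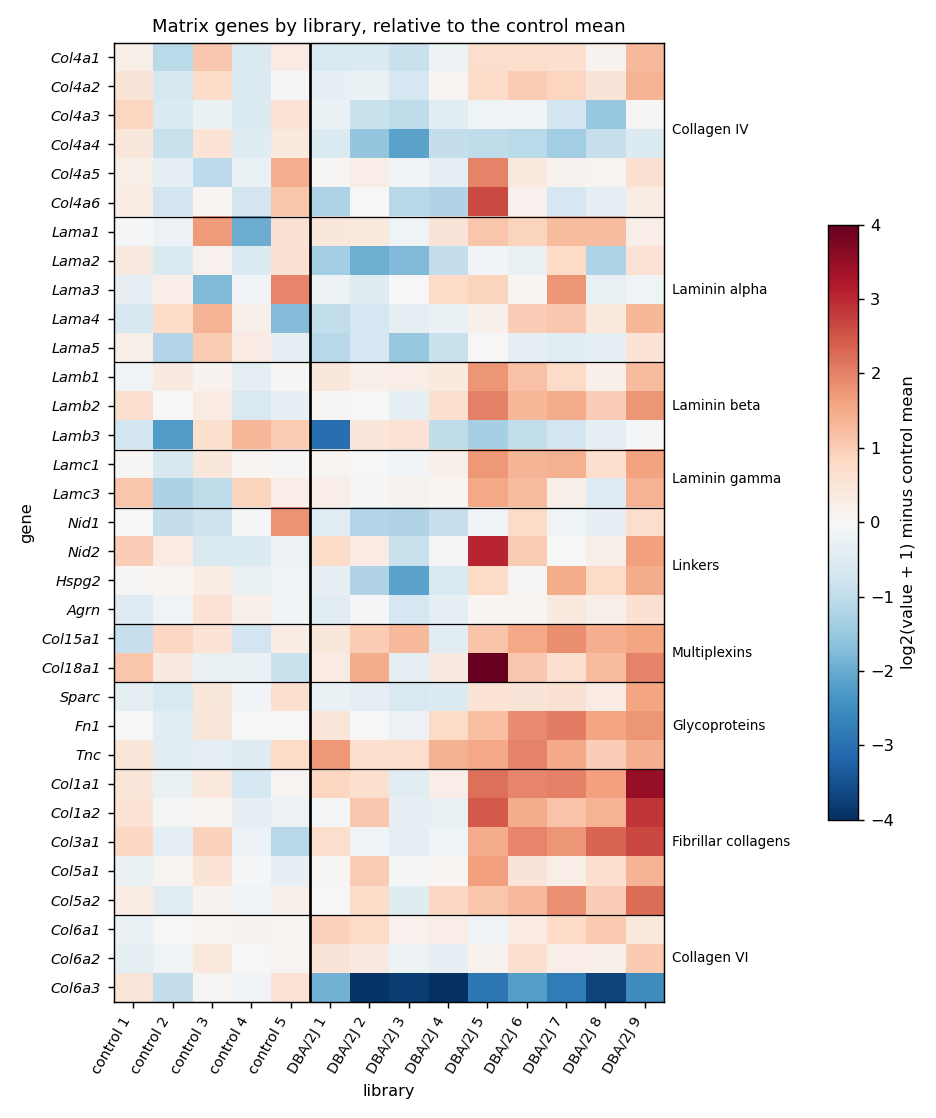
Log2(value + 1) of each gene in each library minus the control mean of that gene, in rows grouped by role, with control samples 1 to 5 left of the line and DBA/2J samples 1 to 9 right of it. Col6a3 is low in all 9 DBA/2J columns, Col1a1, Col1a2, Col3a1 and Col5a2 are above every control in DBA/2J samples 5 to 9, and colours do not deepen beyond 4 in either direction.

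Of the glycoproteins, Fn1 and Tnc rose and Sparc did not pass. Tnc, tenascin C, a glycoprotein of remodelling matrix that glia and mural cells can make (chromosome 4, 63959785 to 64047015), stood at 479, 250, 260, 242 and 597 in controls and 544 to 1353 in DBA/2J (median 939). The groups overlapped only through control sample 5 and DBA/2J samples 2 and 3, and 7 DBA/2J libraries lay above every control. The mean rose from 366 ± 163 (SD, n = 5) to 894 ± 266 (SD, n = 9), a log2 fold change of 1.34 (SE 0.25, adjusted p = 0.0024, limma). It passed in all 14 fits that left out a library (1.21 to 1.54), but not with the controls of library numbers 28 and 30 alone (1.17, adjusted p = 0.054) or with the lens covariate (1.39, adjusted p = 0.3). Its start window lies at chr4:64046966-64047265 on the reverse strand, with the bases from the start on in capitals. It held a TATA box at position -126 and a GC box at -167.
Tnc: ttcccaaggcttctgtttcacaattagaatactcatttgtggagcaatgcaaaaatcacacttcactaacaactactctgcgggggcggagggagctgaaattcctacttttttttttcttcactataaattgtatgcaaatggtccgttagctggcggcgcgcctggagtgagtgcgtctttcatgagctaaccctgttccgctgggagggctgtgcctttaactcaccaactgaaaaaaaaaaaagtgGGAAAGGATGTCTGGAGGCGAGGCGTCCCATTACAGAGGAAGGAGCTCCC

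Fn1, fibronectin, the glycoprotein on which other matrix fibres assemble, stood at 3146, 2335, 4406, 3173 and 3149 in controls. In DBA/2J it ran from 2727 to 13070, with 2 libraries inside the control range. Its log2 fold change was 1.06 (SE 0.34, adjusted p = 0.0361, limma). Over the 14 fits that left out a library it stayed at 0.94 to 1.22, but whether it passed depended on single libraries. Leaving out any of control samples 1, 2, 4 and 5 or of DBA/2J samples 5, 6, 7, 8 and 9 lost the call (0.94 to 1.06, adjusted p = 0.0533 to 0.0893). With the mean of the endothelial list as a covariate it was 0.38 (adjusted p = 0.107), and with the lens mean 0.55 (adjusted p = 0.716). The call was also lost with the controls of library numbers 16 to 18 alone (1.05, adjusted p = 0.12) or 28 and 30 alone (1.07, adjusted p = 0.199). With the replicate block it was lost as well (0.45, adjusted p = 0.304). In that fit DBA/2J samples 6, 7, 8 and 9, which have no control of the same number, added nothing to the group difference. Sparc stood at 9186, 7904, 16720, 11300 and 18800 in controls and 7853 to 35810 in DBA/2J, with a log2 fold change of 0.19 (SE 0.32, adjusted p = 0.724).

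Fibrillar collagen genes were high in some DBA/2J libraries and not in others, and none of the 5 passed by limma. At an unadjusted p under 0.05 all 5 were higher, as were 27.8% of coding genes. Col1a2, of type I collagen, stood at 444, 292, 332, 243 and 259 in controls. In DBA/2J samples 1 to 4 it was at 298, 653, 242 and 250.8, and in samples 5 to 9 at 1700, 852, 681, 810 and 2213. The log2 fold change over all libraries was 1.08 (SE 0.45, adjusted p = 0.0999). Col3a1, of type III collagen, stood at 87.1 to 360 in controls, 146 to 312 in DBA/2J samples 1 to 4 and 528 to 1223 in samples 5 to 9 (1.14, SE 0.50, adjusted p = 0.12). Col1a1 was scarce, at 5.08 to 13.0 in controls and 6.43 to 110 in DBA/2J (1.41, SE 0.53, adjusted p = 0.0728). Col1a2 was also above every control in DBA/2J sample 2. Col5a2 and Col5a1, of the type V collagen that seeds fibrils, had log2 fold changes of 0.95 (adjusted p = 0.07) and 0.61 (adjusted p = 0.143). Col5a1 lay inside the control range in DBA/2J samples 6 and 7, at 143 and 119, and was at 204 in sample 2. Without DBA/2J sample 3, Col1a1 (1.63, adjusted p = 0.0289), Col1a2 (1.26, adjusted p = 0.0464) and Col5a2 (1.13, adjusted p = 0.019) passed, as did Col5a2 without DBA/2J sample 1 (1.07, adjusted p = 0.0425).

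The same DBA/2J libraries were high in endothelial and leukocyte markers, and above DBA/2J samples 1 to 4 in several other marker lists. The mean log2 value of the 33 genes was 7.51 to 8.11 in controls, 7.30 to 7.75 in DBA/2J samples 1 to 4 and 8.17 to 8.97 in samples 5 to 9. The endothelial list ran from 9.57 to 10.4 in controls, from 9.66 to 10.3 in DBA/2J samples 1 to 4 and from 10.6 to 11.7 in samples 5 to 9. The leukocyte list, of which 1 of 6 genes rose, ran from 7.59 to 8.76 in controls, from 7.90 to 8.55 in samples 1 to 4 and from 9.10 to 10.7 in samples 5 to 9. In the same order, the pericyte list ran from 8.59 to 9.825, 8.49 to 9.28 and 9.50 to 10.7. The fibroblast list ran from 6.03 to 6.54, 4.81 to 5.53 and 5.83 to 7.10. Astrocyte and red cell lists were also higher in samples 5 to 9 than in 1 to 4. Smooth muscle, lens, Muller glia, rod and retinal pigment epithelium lists overlapped between these sets. Samples were not divided for a test, since these ranges come from the measured values. With the endothelial mean as a covariate, Tnc was the 1 member higher, and Col4a4, Lama2, Lama5 and Col6a3 were lower, where 9.56% of all genes were higher and 8.14% lower. With the mean of the pericyte and smooth muscle lists, 10 members were higher and 3 lower, where 13.7% of all genes were higher and 8.88% lower.

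Matrix genes have long transcripts, and fold changes in this series followed length. The longest transcripts of the members ran from 2300 to 14187 nucleotides with a median of 6536, against 3248 for coding genes tested. Coding genes were put into 10 bins by length. The bin of shortest transcripts had a median log2 fold change of -0.44, and in bins 9 and 10, which hold 28 of the 33 members, it was 0.47 and 0.39. In bin 9, 36% of coding genes were higher. The members' median of 0.37 is thus below the medians of the bins that hold most of them. After a spline on length and GC content was taken out of each library, the members' median was 0.10 and that of all genes -0.02, and 17 of 33 members were above 0, against 24 before.

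Calls on Col6a3 (-3.50, adjusted p = 9.91e-06), Col4a4 (-1.57, adjusted p = 0.0014) and Tnc (0.86, adjusted p = 0.0139) were also made after that correction, by limma. Fn1 was no longer past the threshold (0.61, adjusted p = 0.177), and Col4a3 then passed (-1.06, adjusted p = 0.0171). Of all genes, 5.59% were then higher and 7.62% lower. Col4a4, at 10108 nucleotides, and Col6a3, at 10106, lie in bin 10, where 30.9% of coding genes were higher and 4.53% lower.

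**Figure D4:**
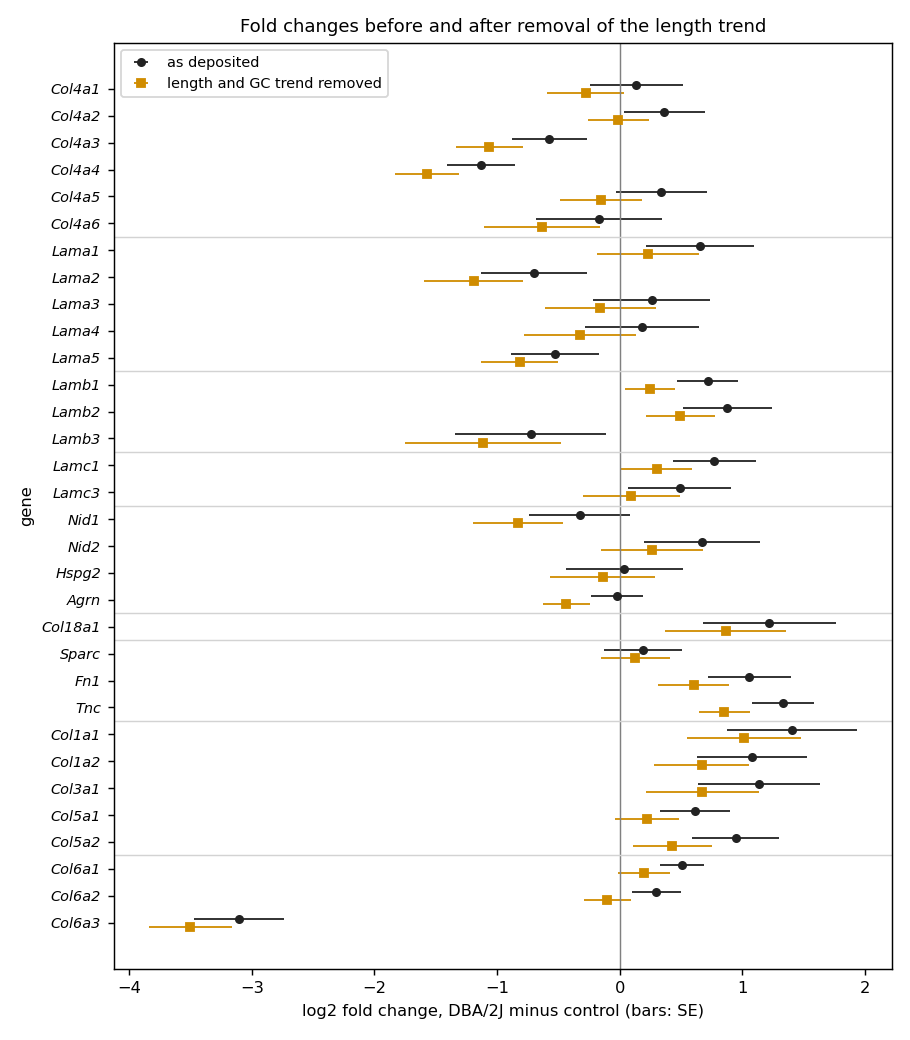
Log2 fold change of DBA/2J minus control for 32 genes (Col15a1 is left out for lack of reads), with bars of 1 SE, as deposited (circles) and with the trend on transcript length and GC content removed (squares). The correction moves all 32 genes to the left, and Col6a3 stays farthest from 0 at -3.10 and -3.50.

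Proportions of partner chains were compared next. For 6 log2 ratios within a library, none differed between the groups after adjustment over the 6, and 0 did at an unadjusted p under 0.05 (two-sided exact permutation tests, where the smallest p these groups allow is 5e-04). Col4a2 to Col4a1 was -0.20 ± 0.37 (SD, n = 5) in controls and 0.03 ± 0.12 (SD, n = 9) in DBA/2J (exact permutation p = 0.1, adjusted p = 0.309). Lama5 to Lama4 was -0.998 ± 1.27 and -1.71 ± 0.55 (exact permutation p = 0.163, adjusted p = 0.309), and Nid2 to Nid1 -1.23 ± 1.31 and -0.23 ± 0.94 (exact permutation p = 0.139, adjusted p = 0.309). Without control sample 2, Col4a2 to Col4a1 (a difference of 0.34, adjusted p = 0.042) and Lama5 to Lama4 (-1.19, adjusted p = 0.042) passed. Lamb2 to Lamb1, Col1a2 to Col1a1 and Col18a1 to Col15a1 had adjusted p of 0.667, 0.309 and 0.875, the last with a sign that changed with the pseudocount.

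Among 85 other genes that build, modify, join or sense matrix, 21 rose and 1 fell (limma). Of 26 genes of collagen synthesis and crosslinking, 8 rose and none fell. Of 26 matrix receptors, 10 rose and 1 fell. Of 33 other matrix proteins, 3 rose and none fell. At an unadjusted p under 0.05, 37 of the 85 were higher and 3 lower, against 27.8% and 13.3% of coding genes. At the adjusted threshold 17.9% of coding genes were higher and 7.81% lower. In the second longest of 10 length bins 36% were higher, but the lengths of the 85 genes were not set against the bins. After removal of the length trend 13 of the 85 genes were higher and 2 lower, where 5.59% of all genes were higher and 7.62% lower. The endothelial covariate left 12 and 4, where 9.56% of all genes were higher and 8.14% lower. With the lens covariate none of the 85 passed (12 higher and 0 lower at an unadjusted p under 0.05), so no gene named below did. That covariate separates the groups completely, and 1 gene higher and 8 lower remained of all genes tested. It therefore cannot tell lens RNA from strain.

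Among the enzymes, Lox, lysyl oxidase, which starts the crosslinking of collagen and elastin, averaged 15.4 ± 14.9 (SD, n = 5) in controls and 106 ± 55.2 (SD, n = 9) in DBA/2J and rose by 3.00 on the log2 scale (SE 0.50, adjusted p = 0.00124, limma). Control values ran from 3.16 to 40.3 and DBA/2J values from 36.8 to 195. Mia3, which loads bulky collagens for export from the endoplasmic reticulum, rose by 0.86 (SE 0.15, adjusted p = 0.0014), and its groups did not overlap, with controls up to 2529 and DBA/2J from 2564. Of all genes tested, 2.91% were separated in that direction. Colgalt1, a galactosyltransferase of collagen lysines, rose by 0.66 (SE 0.16, adjusted p = 0.00787). All of these passed in each of the 14 fits that left out a library and after removal of the length trend (2.64, 0.64 and 0.45), and with the lens covariate they stood at 2.91, 0.72 and 0.54 without passing.

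Dag1, dystroglycan, the laminin receptor of glial endfeet, had the lowest p of the receptors and rose by 1.44 (SE 0.20, adjusted p = 0.000453, limma). Its controls ran from 920 to 1565 and its DBA/2J libraries from 2104 to 5077, so the groups did not overlap. Nor did they for Cd44, Sdc3 and Itgav. Of all genes tested, 2.91% were separated with DBA/2J higher and 2.31% with DBA/2J lower. Cd44, the hyaluronan receptor, rose by 1.65 (SE 0.28, adjusted p = 0.00119), from 100 to 363 in controls to 434 to 993 in DBA/2J. Sdc3, a syndecan, rose by 1.09 (SE 0.19, adjusted p = 0.0016). Itgav, the alpha chain of vitronectin and fibronectin receptors, was the 1 receptor that fell, by 1.20 (SE 0.23, adjusted p = 0.00262), from 879 to 2285 in controls to 408 to 870 in DBA/2J. It is named as the single receptor that fell, a choice made with its value in view. After removal of the length trend these were 0.97, 1.22, 0.74 and -1.59, and each passed. Muller glia markers, 5 of 8 of which were higher, moved with the Dag1 and Cd44 results, and their part was not tested.

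Among other matrix proteins, Emilin2, an elastin-interface glycoprotein, rose by 2.72 (SE 0.56, adjusted p = 0.00384, limma) from a low level, at 1.14 to 8.37 in controls and 5.66 to 78.2 in DBA/2J. Thbs2 and Thbs1, the thrombospondins that restrain vessel growth, rose by 1.76 (SE 0.47, adjusted p = 0.0152) and 1.39 (SE 0.38, adjusted p = 0.0159). With the length trend taken out these were 1.24 (adjusted p = 0.0758) and 0.89 (adjusted p = 0.0741), past no threshold, and the Thbs1 call was lost without control sample 3 (adjusted p = 0.0622). Col12a1, also named with its value in view, passed as lower once that trend was gone (-1.09, adjusted p = 0.0326), against -0.66 as deposited (adjusted p = 0.137).

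**Figure D5:**
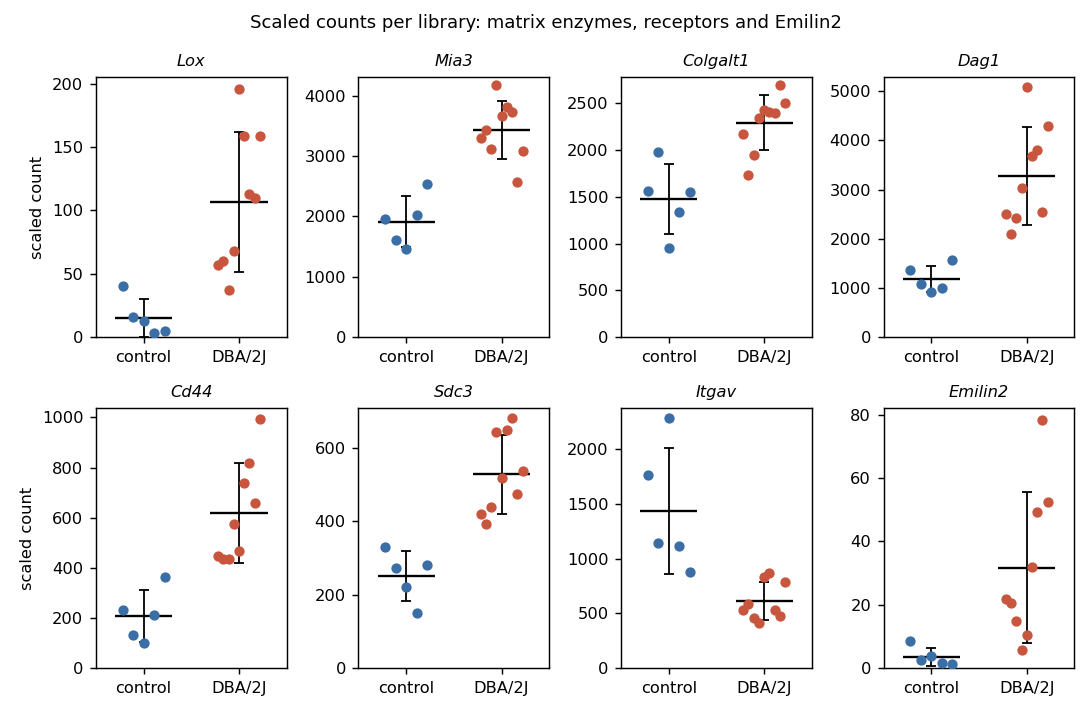
Scaled counts per library for Lox, Mia3, Colgalt1, Dag1, Cd44, Sdc3, Itgav and Emilin2, one point per library in order of sample number, with the mean and SD of each group (n = 5 and n = 9). Dag1 lies at 2104 or more in all DBA/2J libraries and at 1565 or less in controls, and Itgav is the panel in which controls are the higher group.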

How the data were processed

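Per the series design text, the authors aligned and quantified reads with kallisto, against GRCm38 with GENCODE M23. GRCm39, kallisto and sleuth appear in the submitters' processing notes, so the build is not settled here. Values in the deposited table are a signal for each symbol that looks, from its spacing, like estimated counts scaled library by library (called scaled counts above). How they were scaled: not given in the sources used here. At a tolerance of 0.01, 18.8% to 22.0% of values above 0 came out as whole reads, so no count model was run. Date-like symbols filled 26 of 40149 rows, which were dropped (at most 0.201% of a library). Of 40123 symbols, 39019 matched GENCODE M21 (GRCm38), which gave coordinates, transcript length and GC content.

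After the filter (1 or more in 5 libraries), limma 3.58.1 with a mean trend, run in R 4.3.3, compared log2(value + 1) between groups, two-sided, with group as the only term and Benjamini-Hochberg adjustment over all genes at 0.05. This scale understates fold changes of low genes. The length correction was a spline of 5 degrees of freedom on log2 length and on GC content per library. The fit and the correction were tested on simulated data. Per-library values are given for members past the threshold, before or after the correction, and for leading members of each role. Of each other list, up to 3 genes past the threshold with the lowest p were named. The members and lists were chosen with earlier results of these data known. No libraries agreed within sampling noise (chi-square per gene of 17.6 or more, where 1 is noise). Whether counting used strand is not given, so reads of overlapping antisense genes, as at the Col4a1 and Col4a2 starts, cannot be told apart. Without molecular identifiers, estimated depth covers counting error only. Alternatives covered the pseudocount, filter, scaling, length correction, replicate block, marker means as covariates, subsets of the controls and single libraries left out.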

Additional observations from a re-analysis of the deposited data

Results flagged for a closer look

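Of 66 sets of values (33 genes in 2 groups), 2 held a library whose gap to its nearest neighbour was large for the range of its group, where chance gives about 3.3. Both belonged to DBA/2J sample 5. Col4a5 stood there at 1582 scaled counts with 612 next, a gap of 0.584 of the range on the log2 scale. Col4a6 stood at 741 with 145 next, a gap of 0.608. Col4a5 and Col4a6 start 1309 bases apart on chromosome X.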

How the results depend on the processing

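Members higher numbered 2 as reported. They numbered 1 with no filter on low values, 4 with a minimum of 10, 9 with equal totals, 1 with the length trend removed, 1 with the endothelial covariate and 10 with the pericyte and smooth muscle covariate. Of all genes tested, 3518 of 29166 were higher as reported, 3003 of 39168 with no filter, 3673 of 21079 with a minimum of 10 and 5422 of 29295 with equal totals. With the controls of library numbers 16 to 18 members higher numbered 1 (2369 of 28289 genes). With 28 and 30 there were none (8 unadjusted), where 1684 of 28212 genes were higher and 734 lower. Members lower numbered 2 as reported, 4 with the endothelial covariate and 1 with controls 28 and 30. With the lens covariate no member was higher (1 unadjusted) or lower (3 unadjusted), and of all genes tested 1 was higher and 8 lower. Other matrix genes higher numbered 21 as reported, 36 with equal totals, 13 with the length trend removed, 12 with the endothelial covariate, 12 with controls 28 and 30, and 0 with the lens covariate (12 unadjusted). Those lower numbered 1 as reported, 2 with the length trend removed, 4 with the endothelial covariate, and 0 with the lens covariate (0 unadjusted) or controls 28 and 30 (2 unadjusted). Equal totals moved the median of all genes from 0.05 to 0.19, and the cause of the other differences was not tested.

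With controls 28 and 30 alone, 3 ratios passed: Col4a2 to Col4a1 (0.40), Lama5 to Lama4 (-1.42) and Nid2 to Nid1 (2.24), each with adjusted p = 0.0364. So few controls leave few arrangements for the exact permutation test, and these ratios all sat at the smallest p it then allows. The Col18a1 to Col15a1 difference was -0.66 with a pseudocount of 0.1 and 0.12 as reported. With controls 16 to 18 it was -0.11 and that of Lamb2 to Lamb1 -0.0328. Replicate numbers did not pair the libraries (correlations of -0.08 to 0.02 between same-numbered libraries, and 0 of 5 controls closest to their own number). In the replicate block, DBA/2J samples 6 to 9 had no control of the same number and added nothing to the group difference. That fit left 1 member higher and 3 lower, and 7 other matrix genes higher and 2 lower. Of all 29166 genes tested, 1408 were then higher and 1057 lower, against 3518 and 2101 as reported.

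Leaving out 1 library gave 1 to 8 members higher (8 without DBA/2J sample 3), 2 lower in each of the 14 fits, a members' median of 0.27 to 0.53, and 15 to 27 other matrix genes higher and 1 to 2 lower. The ratios then spanned 0.14 to 0.34 (Col4a2 to Col4a1), -1.19 to -0.38 (Lama5 to Lama4), 0.07 to 0.36 (Lamb2 to Lamb1), 0.50 to 1.31 (Nid2 to Nid1), -0.25 to 0.62 (Col18a1 to Col15a1) and -0.42 to -0.23 (Col1a2 to Col1a1). No member past the threshold in any fit changed sign. Depth limits Col15a1, Lamb3 and Col1a1, with as few as 0.111, 1.92 and 4.97 estimated reads in a library.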
